A study of Homo sapiens with 24 samples.

Results

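Depletion of RPRD1A alone was compared with control siRNA in HEK293T, a line of human embryonic kidney origin that carries the SV40 large T antigen. The comparison takes the 2 libraries whose titles name RPRD1A as the only target and the 2 control libraries, which is 4 of the 24 samples in the series. The control group received control siRNA and the RPRD1A_KD group received siRNA against RPRD1A. Both were read 48 h after transfection, and the libraries of each group are numbered 1 and 2. Of the other siRNA groups, RPRD1B_KD, RPRD2_KD, RPRD1A_RPRD2_KD, RPRD1B_RPRD2_KD and RPRD1A_RPRD1B_RPRD2_KD are used below to set the RPRD1A response beside other libraries, and each is named for the transcripts targeted. A further group, RPRD1A_RPRD1A_KD, names RPRD1A in both positions of its label; it was kept as labelled, shown in the plots of levels and used in no comparison. The siRNA sequences, and whether 1 or several siRNAs were used per target, are not given in the sources used here. Nothing in the labels says that libraries 1 and 2 came from separate cultures, so the p-values measure the spread between these libraries, which may be technical.

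RPRD1A, RPRD1B and RPRD2 are human relatives of a yeast termination factor. Each has a domain that binds the phosphorylated C-terminal repeat domain (CTD) of the largest RNA polymerase II subunit, and RPRD1A and RPRD1B are also known to associate with the phosphatase RPAP2, which removes phosphate from serine 5 of that repeat. The CTD carries kinases, phosphatases and RNA processing factors along the transcribed gene. RPRD1A is also known under the name P15RS, from work on cell cycle and Wnt signalling. Genes for these functions were therefore read as groups beside the transcriptome as a whole.

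The assay reads polyadenylated transcripts from their 3' ends, so a gene's count reflects its number of transcripts and not its length. Counts in genes came to 1833696 and 2209270 in the control libraries and 2105307 and 2861767 in the RPRD1A_KD libraries, within the range of 1817246 to 3135625 over all 16 HEK293T libraries. Levels are given as CPM, counts per 1e6 counts in genes after scaling of library sizes. Before that scaling, a count of 3 was worth 1.05 to 1.64 per 1e6 counts in the 4 libraries. Libraries with the number 1 differed from those with the number 2 in every group: 34.3% to 36.7% of the reads lay outside genes in the former and 27.4% to 29.8% in the latter. The comparison was set beforehand to pair libraries by replicate number, which entered the fit as a block. The second RPRD1A_RPRD2_KD library stood apart from the other 15 on the first principal component, at -59.6 against -5.28 to 16.3. It was left out of the fit, in which the other 15 libraries share 1 estimate of the spread, a choice made with earlier results of these data known. Genes of the mitochondrial genome are listed at 0 in every library, so nothing can be said of them.

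RPRD1A itself fell in the libraries that carry its name. The gene lies on chromosome 18 (GRCh38, chr18:35984387-36067576, minus strand). It stood at 157 and 166 CPM in the control libraries (274 and 364 counts) and at 16.9 and 23.4 CPM in RPRD1A_KD (35 and 68 counts). The groups were far apart, and the mean of 20.2 ± 4.59 CPM (SD, n = 2) was 12.5% of the control mean of 162 ± 6.29 CPM (SD, n = 2). The log2 fold change was -2.98 ± 0.17 (SE) with an adjusted p of 8.54e-22 by edgeR's quasi-likelihood test, and the gene was called under each of 13 alternative settings, at -3.17 to -2.86. Fewer cells with the transcript and less transcript per cell cannot be told apart in these bulk samples.

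The transcripts of the other family members were not called. RPRD1B, which pairs with RPRD1A, stood at 28.7 and 28.3 CPM in the controls and at 27.6 and 23.4 CPM in RPRD1A_KD (log2 fold change -0.17 ± 0.24 (SE), adjusted p = 0.898). RPRD2 stood at 99.3 and 102 CPM and at 105 and 88.8 CPM (-0.07 ± 0.13 (SE), adjusted p = 0.931). In RPRD1A_RPRD1A_KD, RPRD1B was at 14.3 and 8.10 CPM and thus as low as the 3.995 to 14.8 CPM of the groups labelled with RPRD1B. RPRD2 was at 31.2 to 70.4 CPM in the libraries of the fit that name RPRD2. The mean level of RPRD1A was lower than in the controls in groups without RPRD1A siRNA as well: it was 86.5 and 103 CPM in RPRD1B_KD, 74.9 and 100.2 CPM in RPRD2_KD and 70.0 and 85.4 CPM in RPRD1B_RPRD2_KD. With RPRD1A siRNA it stayed at 14.7 to 27.6 CPM in all 7 libraries of the fit that carry its name, whatever was targeted beside it. The 4 neighbouring genes on chromosome 18 that were tested had adjusted p-values of 0.81 to 0.993 (edgeR). C18orf21 stood at -0.12 on the log2 scale, AC091060.1 at 1.21 (SE 1.08, from levels of 0.574 to 1.93 CPM), SLC39A6 at 0.01 and ELP2 at 0.04. C18orf21 and AC091060.1 overlap in the annotation, so reads may be split between them.

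**Figure D1:**
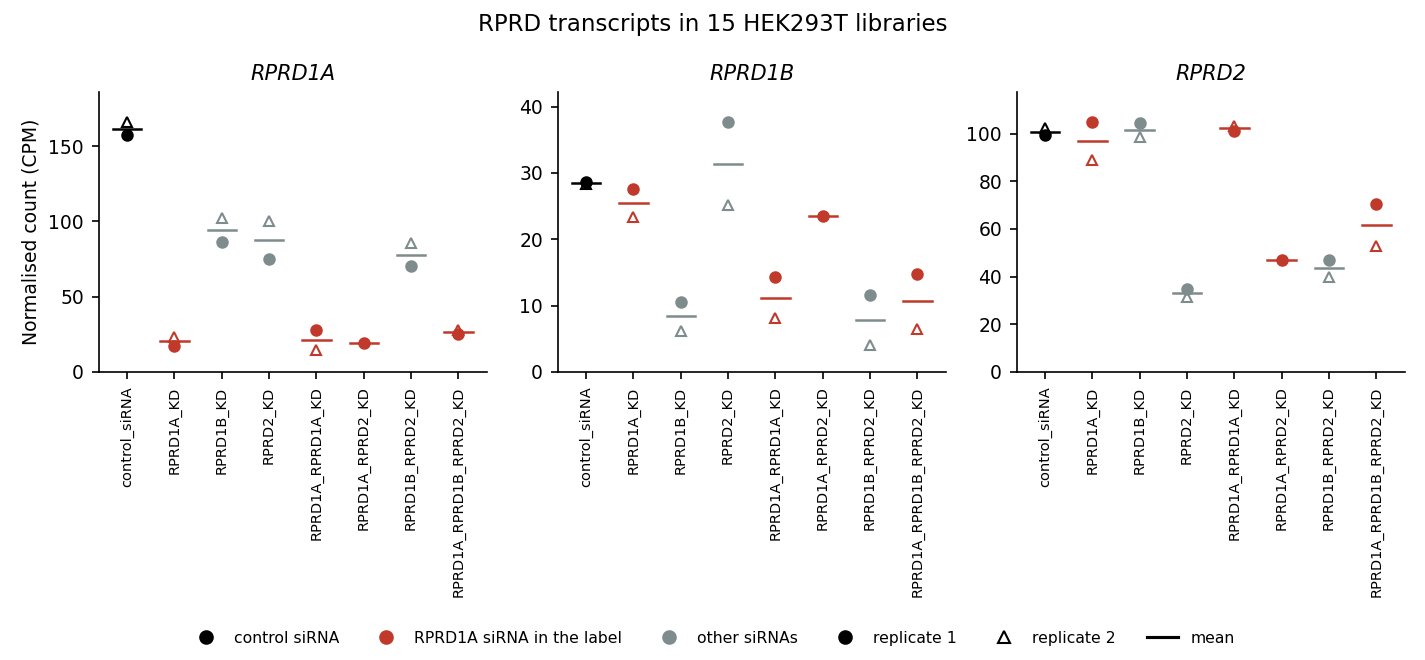
Normalised counts (CPM, linear axis from 0) of RPRD1A, RPRD1B and RPRD2 in each of 15 HEK293T libraries by siRNA group; filled circles are replicate 1, open triangles replicate 2, bars the group mean. RPRD1A lies between 14.7 and 27.6 CPM in every library with RPRD1A siRNA, at 70.0 to 103 CPM with other siRNAs and at 157 and 166 CPM in the controls.

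Beyond RPRD1A the response was small, and most of what changed went down. Of 12255 genes tested, 40 were called at an adjusted p under 0.05 (0.326% of those tested). Of these, 34 were lower in RPRD1A_KD (0.277%) and 6 were higher (0.049%). At an unadjusted p under 0.05, 661 genes were lower (5.39% of those tested) and 459 higher (3.75%), and the median log2 fold change of all genes tested was -0.002. The called changes beside RPRD1A ran from -1.66 to 0.89 on the log2 scale, and the values of the 4 libraries did not overlap between the groups for 30 of the 40 genes, a description of genes already chosen by their call; of all genes tested 28.2% had no overlap. The count depends on the fit: with all 16 libraries in it only RPRD1A was called, 1 of 11834 genes (0.00845%), as also without the replicate block. RPRD1A, NRAS, CACUL1, CBX5 and NDUFAF3 were called whichever of the 4 libraries was left out; with all 16 libraries the last 4 had adjusted p-values of 0.645, 0.0662, 0.0662 and 0.0816 (edgeR).

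**Figure D2:**
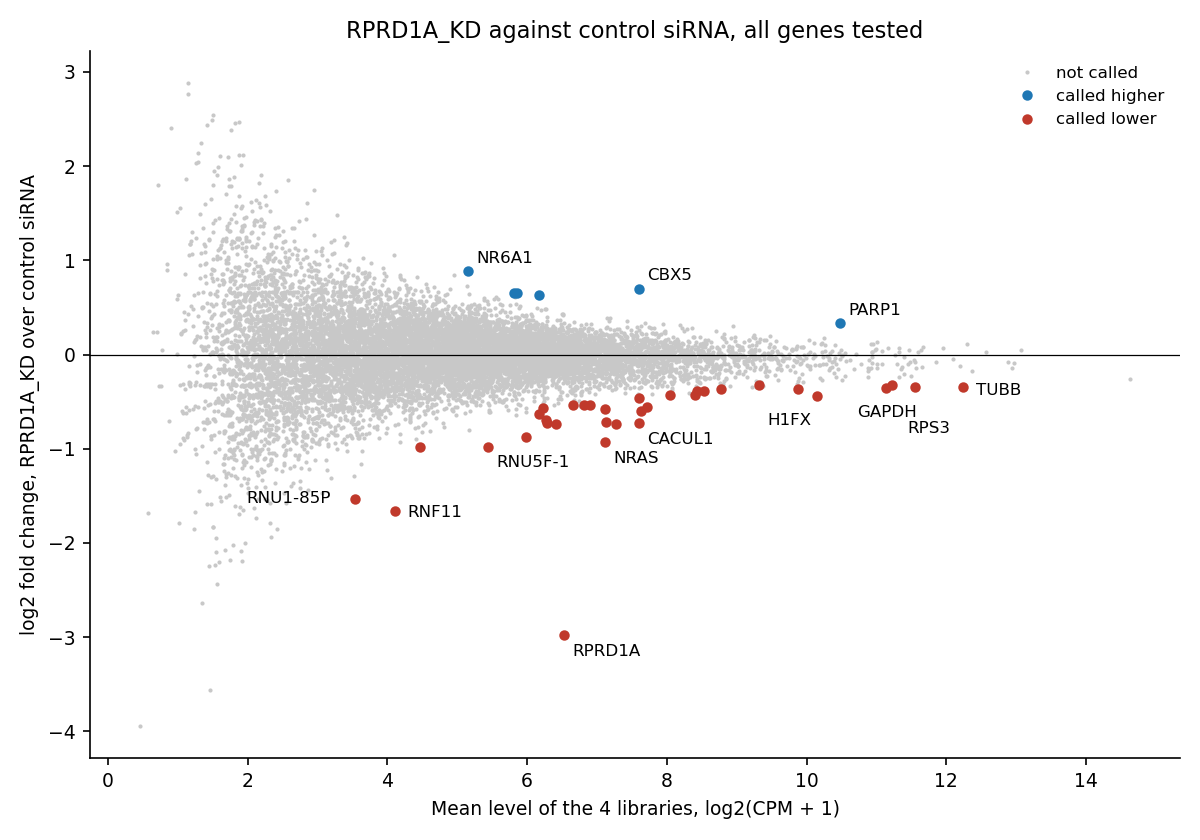
Log2 fold change of RPRD1A_KD over control siRNA (vertical axis) against the mean level of the 4 libraries, log2(CPM + 1) (horizontal axis), for the 12255 genes tested. The 34 genes called lower (red) include abundant transcripts such as TUBB, RPS3 and GAPDH, and RPRD1A lies lowest among the called genes at -2.98; the 6 called higher are in blue.

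Several called genes also differed when RPRD1A_KD was set against the other single knockdowns. That comparison, with the mean of RPRD1B_KD and RPRD2_KD, uses no control library but shares the RPRD1A_KD libraries, so its values are given side by side with the main ones and are no separate support. It called 71 genes (0.579%), 32 higher (0.261%) and 39 lower (0.318%) in RPRD1A_KD. Of the 33 other genes that were lower than control, 13 were called lower here too. They were NRAS, CACUL1, SLC35B4, NDUFAF3, UBE2K, TPX2, RNF11, SMAD5, ZCCHC12, NETO2, GOLM1, FUBP3 and HOXA10, with a median of -0.72 against control and -0.60 against the other knockdowns. Of the 6 genes that were higher than control, CBX5, PARP1, OGDH and KLHL22 were called higher here.

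NRAS, a small GTPase of the RAS family (GRCh38, chr1:114704469-114716894, minus strand), fell by the smallest adjusted p after RPRD1A. Its levels were 188 and 173 CPM in the controls and 107 and 83.6 CPM in RPRD1A_KD. Both knockdown libraries lay well below both controls, at 53.02% of the control mean (log2 fold change -0.93 ± 0.12 (SE), adjusted p = 2.11e-07, edgeR). In libraries without RPRD1A siRNA it ran from 157 to 216 CPM. In the other libraries with RPRD1A siRNA it was at 94.8 CPM in RPRD1A_RPRD2_KD, 148 and 128 CPM in RPRD1A_RPRD1B_RPRD2_KD and 165 and 113 CPM in RPRD1A_RPRD1A_KD, of which the 165 CPM lies within the range of libraries without it. Against RPRD1B_KD and RPRD2_KD it stood at -1.01 ± 0.10 (SE).

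CBX5, which encodes the heterochromatin protein HP1 alpha (chr12:54230940-54280133, minus strand), rose. It was at 149 and 145 CPM in the controls and at 238 and 238 CPM in RPRD1A_KD, where the libraries of a group lay closer to each other than the groups did by far. The log2 fold change was 0.70 ± 0.11 (SE) with an adjusted p of 4.61e-05, a level 1.62 times that of the controls. The groups without RPRD1A siRNA other than control were at 113 to 139 CPM, and the other groups with it, the doubly named group included, were at 140 to 183 CPM.

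Among the other genes that were lower than in both references, SLC35B4 (chr7:134289332-134317051), a nucleotide sugar transporter, went from 226 and 160 CPM to 115 and 113 CPM (-0.73 ± 0.11 (SE), adjusted p = 4.79e-05). NDUFAF3 (chr3:49020459-49023495), an assembly factor of respiratory complex I, went from 149 and 196 CPM to 85.1 and 125 CPM (-0.71 ± 0.12 (SE), adjusted p = 0.000152); the number 2 library was the higher in each group. TPX2 (chr20:31739271-31801805), a spindle protein that activates Aurora A, went from 263 and 236 CPM to 185 and 155 CPM (-0.56 ± 0.10 (SE), adjusted p = 0.000842). For each of these 3 genes both knockdown libraries lay below both controls. NDUFAF3 was also below its control mean of 172 CPM without RPRD1A siRNA. Its means were 144 CPM in RPRD1B_KD, 140 CPM in RPRD2_KD and 127 CPM in RPRD1B_RPRD2_KD. In the other groups with RPRD1A in the label it was at 101 CPM in the single RPRD1A_RPRD2_KD library. Its means were 72.25 CPM in RPRD1A_RPRD1A_KD and 66.8 CPM in RPRD1A_RPRD1B_RPRD2_KD.

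UBE2K, a ubiquitin-conjugating enzyme, was at 240 and 236 CPM in the controls and at 167 and 149 CPM in RPRD1A_KD, or 66.4% of control. NETO2, an auxiliary subunit of kainate receptors, was at 98.7 and 93.6 CPM and at 59.4 and 56.8 CPM, or 60.5%. CACUL1, a cullin-domain protein known to bind the cell cycle kinase CDK2, was at 247 and 235 CPM and at 156 and 137 CPM, or 60.7%. None of these 3 showed overlap between the groups, and their adjusted p-values were 0.000472, 0.0031 and 1.04e-05 (edgeR). SMAD5, which carries bone morphogenetic protein signals to the nucleus, was at 101 and 110 CPM in the controls and at 56.1 and 69.9 CPM with RPRD1A siRNA (-0.74 ± 0.14 (SE), adjusted p = 0.00137). RNF11, a RING finger protein, had the largest fall after RPRD1A among the called genes, and few counts: 15.5 and 33.3 CPM against 8.70 and 7.23 CPM (-1.66 ± 0.30 (SE), adjusted p = 0.00105).

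The remaining members called lower in both settings of the reference were ZCCHC12 (-0.88), GOLM1 (-0.54), FUBP3 (-0.53) and the homeobox gene HOXA10 (-0.53). ZCCHC12 was at 52.8 and 109 CPM in the controls and 32.9 and 54.7 CPM in RPRD1A_KD, so its groups overlapped, although it was lower within each number. Its mean was 80.7 CPM in the controls, 58.1 CPM in RPRD1B_KD and 82.8 CPM in RPRD2_KD. PARP1, the abundant poly(ADP-ribose) polymerase, rose from 1262 and 1255 CPM to 1804 and 1399 CPM (0.33 ± 0.08 (SE), adjusted p = 0.0284). OGDH, a subunit of the 2-oxoglutarate dehydrogenase complex, went from 62.5 and 49.7 CPM to 86.5 and 86.1 CPM (0.63 ± 0.15 (SE), adjusted p = 0.0369), and KLHL22, an adaptor of cullin 3 ubiquitin ligases, from 48.8 and 39.7 CPM to 68.1 and 70.2 CPM (0.66 ± 0.16 (SE), adjusted p = 0.0453). NR6A1, an orphan nuclear receptor, and FAM83D, a spindle protein, were higher than control (0.89 and 0.66) but were not called against the other knockdowns (0.30 and 0.20). UBE2K, ZCCHC12, GOLM1, FUBP3 and HOXA10 fall outside the rule for named genes and were named after their values were seen.

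**Figure D3:**
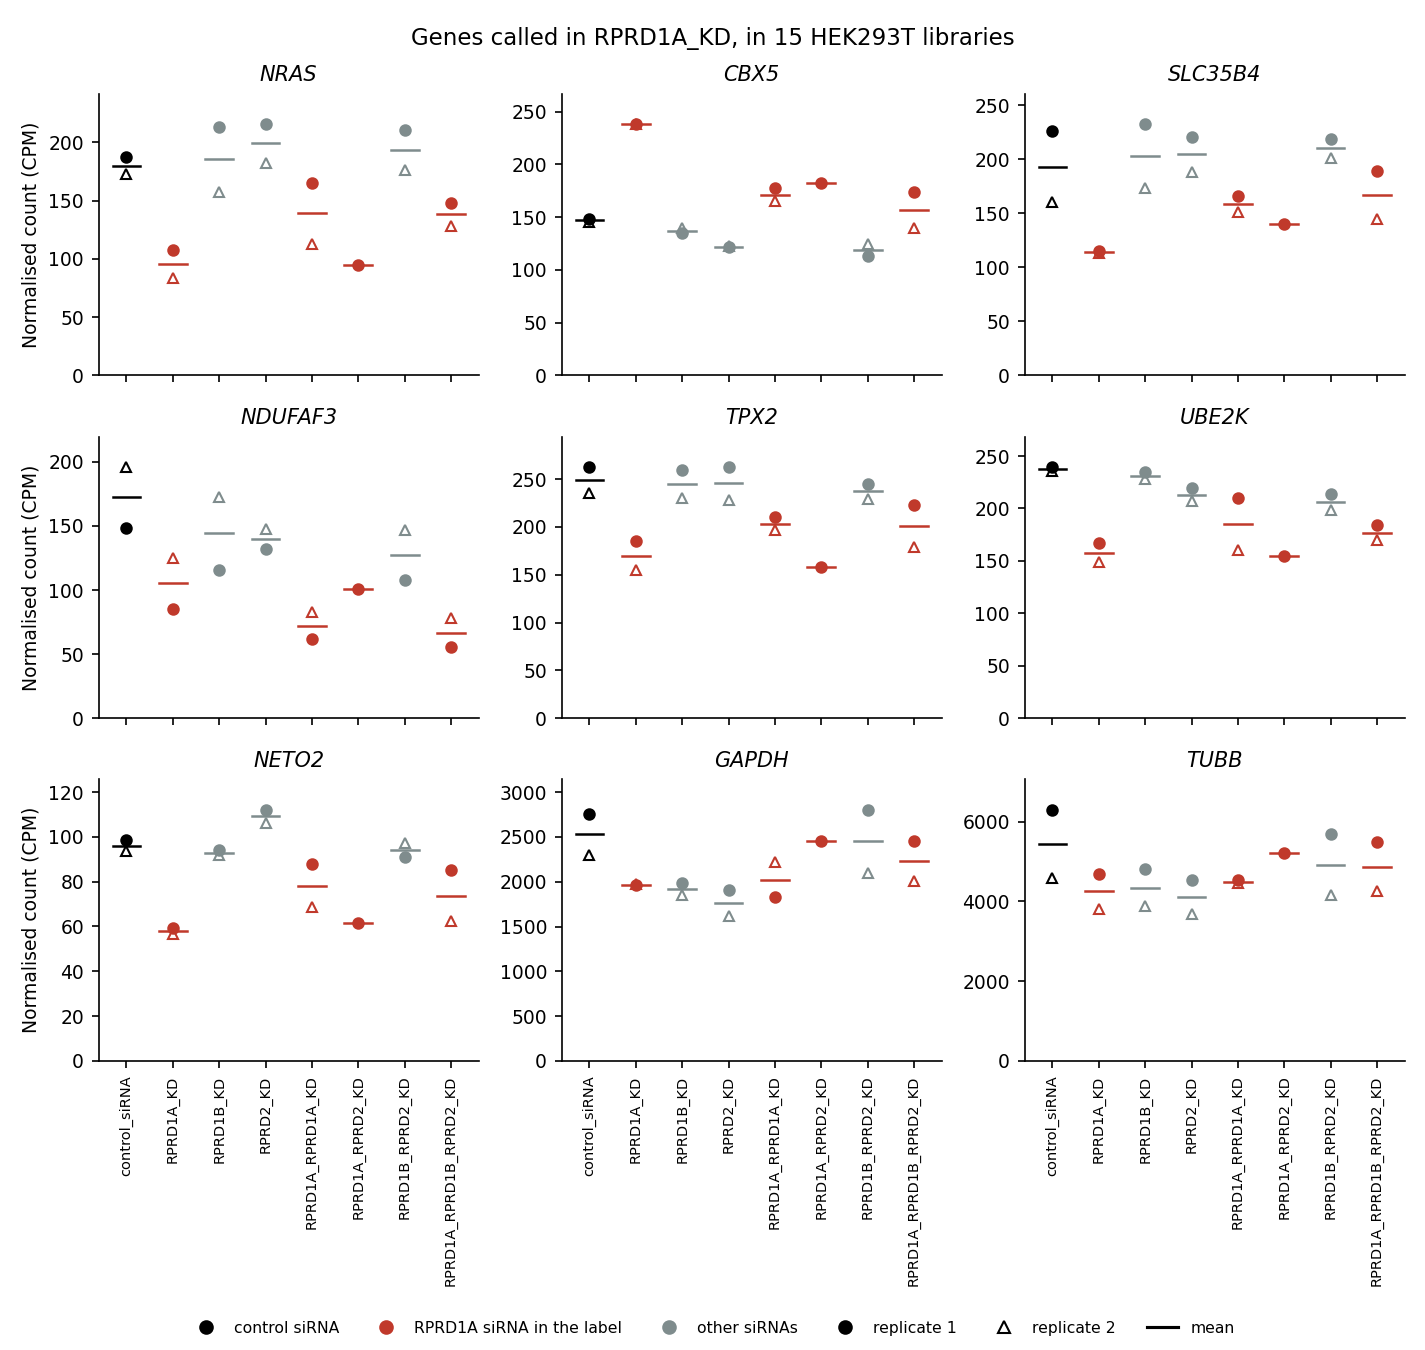
Normalised counts (CPM, linear axes from 0) of 9 genes called in RPRD1A_KD, in 15 HEK293T libraries by siRNA group; filled circles are replicate 1, open triangles replicate 2, bars the group mean. NRAS is at 83.6 and 107 CPM in RPRD1A_KD against 157 to 216 CPM in every library without RPRD1A siRNA, whereas GAPDH at 1967 and 1970 CPM lies within the 1613 to 1984 CPM of RPRD1B_KD and RPRD2_KD.

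RPRD1A siRNA was also added to other siRNAs in this series, in libraries that are not those of the main comparison. Among the groups with RPRD2 siRNA, the mean of the steps from RPRD2_KD to RPRD1A_RPRD2_KD and from RPRD1B_RPRD2_KD to RPRD1A_RPRD1B_RPRD2_KD was tested, with RPRD1A_RPRD2_KD present as 1 library that is assumed to vary like the rest. The test came from the same fit as the main comparison and shares its estimates of the spread and of the replicate block, so calls in both are not fully independent. This called 24 genes (0.196%), 2 higher (0.0163%) and 22 lower (0.18%). It shares no library with the comparison against control, and 8 genes were called in the same direction in both, which is 20% of the 40 and 33.3% of the 24. They were RPRD1A (-1.82), NRAS (-0.85), NETO2 (-0.63), NDUFAF3 (-0.59), SLC35B4 (-0.51), TPX2 (-0.48), UBE2K (-0.37) and CBX5 (0.48), each value being the log2 change on adding RPRD1A siRNA in these libraries. Their adjusted p-values ran from 4.79e-13 for RPRD1A to 0.0417 for UBE2K (edgeR). CACUL1 was not called in this comparison, at -0.25 ± 0.08 (SE). Its level was 210 CPM in the single RPRD1A_RPRD2_KD library beside a mean of 211 CPM in RPRD2_KD. In the other step its means were 185 CPM in RPRD1A_RPRD1B_RPRD2_KD and 244 CPM in RPRD1B_RPRD2_KD. RPRD2 itself was higher with RPRD1A siRNA in both steps, at 0.47 on the log2 scale over their mean. It was at 32.9 CPM in RPRD2_KD and 47.1 CPM in the single RPRD1A_RPRD2_KD library. Its means in the other step were 43.4 CPM in RPRD1B_RPRD2_KD and 61.7 CPM in RPRD1A_RPRD1B_RPRD2_KD. The steps thus differ in RPRD2 level as well, and its part in the changes was not tested. With all 16 libraries the comparison called 8 genes, 2 higher and 6 lower, so these are not the same 8 as those listed above.

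In the step to RPRD1A_RPRD1B_RPRD2_KD taken alone, which has 2 libraries a side and was added after the data were seen, 4 genes were called (0.0326%): RPRD1A (-1.55), NDUFAF3 (-0.93), RNU5F-1 (-0.94) and JMJD4. Of the 33 genes other than RPRD1A that were lower in RPRD1A_KD, 29 were negative there (87.9%, against 50.2% of all genes tested) and 10 were lower at an unadjusted p under 0.05 (30.3% against 3.38%). All 6 genes that were higher in RPRD1A_KD were positive there, 3 of them at an unadjusted p under 0.05 (50% against 2.71%). The median level was 167 CPM for genes called lower and 60.6 CPM for those called higher, against 25.3 CPM for all genes tested. Called genes were also chosen by small p in the same fit, so the shares over all genes are not a like background. The median of the 33 was -0.15 and that of the 6 was 0.25. In RPRD1A_KD, where the genes were chosen by passing the threshold and their values are therefore inflated, the medians were -0.56 and 0.66, so the sizes cannot be compared. NRAS stood at -0.48 ± 0.11 (SE, adjusted p = 0.0974) and CBX5 at 0.39 ± 0.11 (SE, adjusted p = 0.432). SLC35B4, NETO2, TPX2 and UBE2K were not called in this step either, at -0.34, -0.36, -0.24 and -0.22. Their adjusted p-values were 0.593, 0.679, 0.69 and 0.808 (edgeR). Over the mean of both steps, by contrast, 16 of the 33 were negative (48.5%, against 51.6% of all genes), while 12 were lower at an unadjusted p under 0.05 (36.4% against 4.14%) and 4 higher (12.1% against 3.39%). The further step in that mean compares the single RPRD1A_RPRD2_KD library with the RPRD2_KD libraries; which of these libraries moves the count was not tested.

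**Figure D4:**
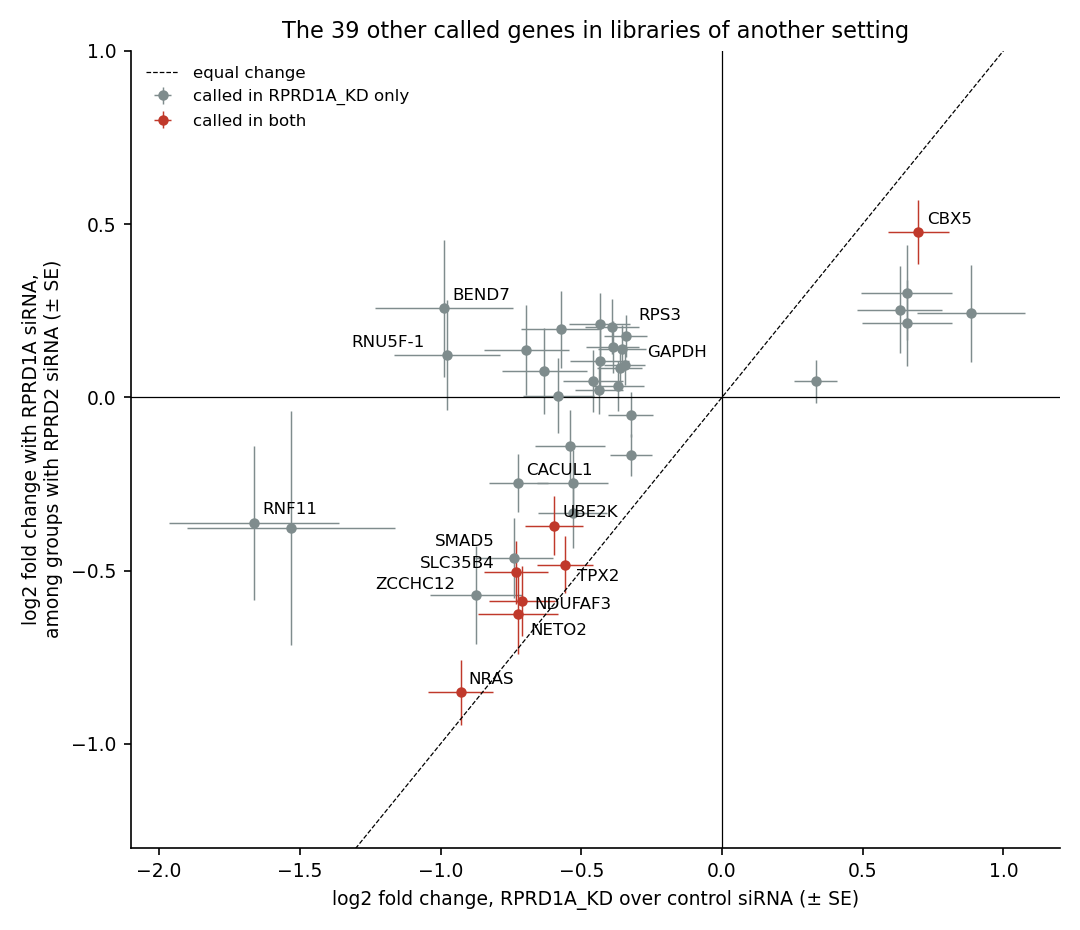
Log2 fold change with RPRD1A siRNA among the groups with RPRD2 siRNA (vertical axis, mean of both steps) against that of RPRD1A_KD over control siRNA (horizontal axis) for the 39 called genes other than RPRD1A; bars are ± SE and the dashed line marks equal change. The 7 genes called in both (red) lie in the quadrants of equal sign, from NRAS at -0.93 and -0.85 to CBX5 at 0.70 and 0.48, and a group of genes with GAPDH and RPS3 lies left of 0 and slightly above it.

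The 300 bases around the start of transcription are shown for the targeted gene and for NRAS, SLC35B4 and CBX5, the genes called in both settings with the smallest adjusted p in RPRD1A_KD, so that a reader can see what kind of promoter they carry. An entry was found for 7 of the 8 genes called in both, all but TPX2. The sequences run from 250 bases before to 50 bases after the start in RefSeq (GRCh38.p14), 5' to 3' on the gene's strand. Capitals mark matches, on either strand, to 6 motifs. TATAAA is the core of the TATA box and CCAAT that of the CCAAT box. GGGCGG is the GC box and CCGGAAG a motif of ETS factors. TGACGTCA is the cAMP response element, and CTTTGAT is bound by TCF/LEF factors of the Wnt pathway. For CBX5 the most upstream of 3 starts is shown. Their positions are chr18:36067510-36067809, chr1:114716722-114717021, chr7:134316881-134317180 and chr12:54280073-54280372, each on the minus strand.
RPRD1A: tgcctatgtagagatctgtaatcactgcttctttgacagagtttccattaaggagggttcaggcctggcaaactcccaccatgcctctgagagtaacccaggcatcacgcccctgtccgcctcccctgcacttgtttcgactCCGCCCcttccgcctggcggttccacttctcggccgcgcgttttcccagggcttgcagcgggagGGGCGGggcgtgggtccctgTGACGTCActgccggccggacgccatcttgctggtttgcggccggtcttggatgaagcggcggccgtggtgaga
NRAS: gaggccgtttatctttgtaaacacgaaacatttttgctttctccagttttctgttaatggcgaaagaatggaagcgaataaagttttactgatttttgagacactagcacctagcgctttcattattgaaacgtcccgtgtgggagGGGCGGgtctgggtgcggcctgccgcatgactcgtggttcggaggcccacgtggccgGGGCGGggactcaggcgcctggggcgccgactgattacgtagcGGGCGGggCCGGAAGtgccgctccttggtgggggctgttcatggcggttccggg
SLC35B4: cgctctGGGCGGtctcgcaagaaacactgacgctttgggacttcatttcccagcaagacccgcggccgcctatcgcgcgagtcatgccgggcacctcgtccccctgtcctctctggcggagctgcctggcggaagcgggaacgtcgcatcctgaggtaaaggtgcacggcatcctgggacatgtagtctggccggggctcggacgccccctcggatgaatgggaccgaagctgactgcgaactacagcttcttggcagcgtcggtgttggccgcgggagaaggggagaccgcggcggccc
CBX5: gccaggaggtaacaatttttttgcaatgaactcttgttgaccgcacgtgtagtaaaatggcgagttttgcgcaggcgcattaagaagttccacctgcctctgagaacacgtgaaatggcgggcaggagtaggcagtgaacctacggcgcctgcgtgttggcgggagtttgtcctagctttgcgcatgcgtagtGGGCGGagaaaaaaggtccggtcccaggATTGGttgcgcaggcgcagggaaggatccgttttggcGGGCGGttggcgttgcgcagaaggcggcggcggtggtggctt
None of the 7 promoters holds TATAAA, which 4.82% of 9025 promoters of this length hold, and none holds CTTTGAT (1.27%). GGGCGG is in 6 of the 7 (72.4% of all), CCAAT in 2 (37.6%) and CCGGAAG in 1, that of NRAS (20.1%). TGACGTCA is in 1, that of RPRD1A (3.47%). A match is a description of letters and not a site shown to be bound.

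The other 20 genes called lower than control were not called against RPRD1B_KD and RPRD2_KD, where their median was 0.00 (range -0.46 to 0.16) beside -0.43 against control; both values follow in part from how the 20 were chosen. Many encode abundant transcripts. GAPDH, the glycolytic dehydrogenase, was at 2758 and 2303 CPM in the controls and at 1967 and 1970 CPM in RPRD1A_KD (-0.36 ± 0.09 (SE), adjusted p = 0.0376). It was at 1984 and 1852 CPM in RPRD1B_KD and at 1907 and 1613 CPM in RPRD2_KD. The RPRD1A_KD libraries were thus below both controls and level with the other single knockdowns.

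TUBB, a beta-tubulin, was at 6303 and 4581 CPM in the controls and at 4692 and 3819 CPM in RPRD1A_KD (-0.35 ± 0.07 (SE), adjusted p = 0.00791). RPS3, a protein of the small ribosomal subunit, was at 2913 and 3825 CPM and at 2295 and 3021 CPM (-0.34 ± 0.08 (SE), adjusted p = 0.0205). In both genes the groups overlapped across replicate numbers and differed within each number. H1FX, a linker histone variant, was at 917 and 1704 CPM and at 695 and 1228 CPM (-0.44 ± 0.09 (SE), adjusted p = 0.00247) and had the same pattern. TAGLN2 (-0.32), the transketolase gene TKT (-0.37), the chaperone cofactors DNAJC7 (-0.36) and CDC37 (-0.33) and the growth factor binding protein IGFBP2 (-0.39) changed by similar amounts. The clathrin adaptor subunit genes AP1S1 (-0.43) and AP2S1 (-0.39) fell by a little more, with CCDC28B (-0.46) and TMUB1 (-0.44).

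QTRT1 and CTU2, which modify tRNAs, stood at -0.58 and -0.57, and FTSJ3, a methyltransferase acting on ribosomal RNA precursors, at -0.63. NRGN, a calmodulin-binding protein, stood at -0.70, and BEND7 at -0.99 from 28.7 and 26.9 CPM to 16.4 and 12.1 CPM. Each of these 5 genes was called lower than control (adjusted p = 0.0154 to 0.0462, edgeR). Of the 20, H1FX, RNU5F-1, TUBB, QTRT1, DNAJC7, CCDC28B, TAGLN2, IGFBP2, TKT, TMUB1, CDC37, CTU2, AP2S1 and AP1S1 fall outside the rule for named genes and were named after their values were seen. GAPDH, TUBB and RPS3 have many pseudogene copies, so the share of their reads that was counted is uncertain.

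Calls in the main comparison were concentrated among abundant genes. Of the 34 genes called lower, 25 were among the 2451 genes with the highest mean level (83.7 CPM or more, of 12255 tested), and 2 of the 6 called higher were. The median level was 167 CPM for genes called lower, 60.6 CPM for those called higher and 25.3 CPM for all genes tested. The median log2 fold change of these 2451 genes was -0.02, and a small change is more readily called at high counts. Annotated transcripts had a median length of 2553 bases for genes called lower and 4070 bases for those called higher, against 3617 bases for all genes tested, and their median GC content was 51.7%, 50.7% and 47.9%. A correction for GC content called 41 genes, of which 35 were among the 40.

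Small nuclear RNA genes, which are short and exist in near-identical copies, also appeared among the calls. RNU5F-1, a U5 gene, was at 26.4 and 86.7 CPM in the controls and at 16.9 and 39.9 CPM in RPRD1A_KD (-0.98 ± 0.19 (SE), adjusted p = 0.00247), and the number 2 library was the higher in each group, so that the groups overlapped. RNU1-85P, annotated as a U1 pseudogene, was at 15.49 and 15.97 CPM and at 4.83 and 5.85 CPM (-1.53 ± 0.37 (SE), adjusted p = 0.0391). Of 11 tested genes named RNU, a set chosen after their values were seen, 2 were called lower and none higher (0.277% and 0.049% of all genes tested), and their median was -0.23 (range -1.53 to 0.18). Reads shared with other copies may be split or left out, so these levels are uncertain, and the assay is described as reading polyadenylated RNA.

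Few genes of the CTD cycle were called. Of 8 proteins with a CTD-interaction domain, RPRD1A alone was called (the share called over all genes was 0.326%). SCAF4, a CTD-binding factor that acts against early polyadenylation, stood at 27.5 and 27.8 CPM in the controls and 13.5 and 18.6 CPM in RPRD1A_KD (-0.75 ± 0.25 (SE), adjusted p = 0.249), and the termination factor PCF11 stood at 0.27 (adjusted p = 0.674). Of 23 CTD kinases and phosphatases none was called, with a median of 0.01 and a range of -0.48 to 0.26. At an unadjusted p under 0.05, 4 were lower and none higher, against 5.39% and 3.75% of all genes tested. They included CTDP1 (-0.48), which encodes the phosphatase FCP1, SSU72 (-0.26), a phosphatase of serine 5, and PPP1CB (-0.33), a catalytic subunit of protein phosphatase 1, with adjusted p-values of 0.258, 0.397 and 0.522 (edgeR).

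Of 16 RNA polymerase II subunits and assembly factors none was called (median 0.02, range -0.64 to 0.21), beside 0.326% of all genes tested. The list had 3 genes lower and 1 higher at an unadjusted p under 0.05, against 5.39% and 3.75% of all genes tested. Those lower were GPN1, POLR2E (-0.245) and POLR2L (-0.292), and POLR2A (0.177) was higher. GPN1, a GTPase needed for import of the polymerase into the nucleus, had the smallest adjusted p, at 0.0768: its levels were 61.4 and 74.4 CPM in the controls and 49.8 and 39.2 CPM in RPRD1A_KD, without overlap (-0.64 ± 0.17 (SE)). Against RPRD1B_KD and RPRD2_KD, GPN1 was called lower (-0.75 ± 0.14 (SE), adjusted p = 0.000907). None of 32 elongation factors (median 0.04), 24 cleavage, polyadenylation and termination factors (-0.01) or 15 Integrator subunits (0.04) was called. These lists had 0, 3 and 0 genes lower and 1, 0 and 0 higher at an unadjusted p under 0.05, beside the same shares of all genes. Among the members with the smallest p were PAPOLG, a poly(A) polymerase, at -0.69 (adjusted p = 0.322), and WDR61, a PAF1 complex subunit, at 0.32 (adjusted p = 0.495).

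Cell cycle and Wnt genes gave 1 call, beside a share of 0.326% called over all genes tested. Of 24 G2/M genes TPX2 was lower and the other 23 were not called (median -0.02, range -0.56 to 0.30). TTK, a spindle checkpoint kinase, was at -0.39 (adjusted p = 0.415) and CCNA2, cyclin A2, at -0.26 (adjusted p = 0.545). None of 32 G1/S genes was called (median 0.02). CCND1, cyclin D1, stood at 62.5 and 57.5 CPM in the controls and 47.8 and 48.5 CPM in RPRD1A_KD (-0.31 ± 0.17 (SE), adjusted p = 0.561). CDT1, a replication licensing factor, was at -0.29 and PCNA, the replication clamp, at -0.32 (adjusted p = 0.226 and 0.332). None of 26 Wnt and beta-catenin genes was called (median -0.04, range -0.50 to 0.31). HDAC2 was at -0.32 (adjusted p = 0.222, edgeR) and the coactivator PYGO2 at -0.26 (adjusted p = 0.461, edgeR). The G2/M, G1/S and Wnt lists had 2, 4 and 2 genes lower at an unadjusted p under 0.05, against 5.39% of all genes tested. They had 0, 1 and 0 higher, against 3.75%.

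Signalling and stress lists gave few calls as well, beside the share of 0.326% called over all genes tested. Of 24 genes of the TGF-beta and BMP response SMAD5 was lower and none other was called (median -0.03). SMAD9 stood at -0.68 and SKIL, a repressor of SMADs, at 0.67 (adjusted p = 0.543 and 0.461, edgeR). This list had 3 genes lower and 1 higher at an unadjusted p under 0.05, against 5.39% and 3.75% of all genes tested. None of 26 ATF4 stress response genes was called, but the list had the lowest median, -0.15, with 20 members negative and 6 positive against 6186 and 6069 of all genes tested. At an unadjusted p under 0.05, 6 of the 26 were lower and none higher, against 5.39% and 3.75% of all genes tested. SLC7A5, an amino acid transporter, was at 667 and 716 CPM in the controls and 542 and 549 CPM in RPRD1A_KD (-0.34 ± 0.09 (SE), adjusted p = 0.0717), but at 500 and 543 CPM in RPRD1B_KD and 483 and 449 CPM in RPRD2_KD. None of 23 p53 response genes (median 0.07), 12 interferon-stimulated genes (-0.01), 15 immediate early genes (-0.12), 23 heat shock and chaperone genes (-0.07) or 13 RNA interference genes (0.09) was called. At an unadjusted p under 0.05, these 5 lists had 1, 0, 0, 0 and 1 genes higher and 1, 1, 1, 2 and 0 lower, beside the same shares of all genes.

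Metabolic and ribosomal lists gave 2 calls, GAPDH and RPS3, beside a share of 0.326% called over all genes tested. Of 30 glycolysis and hypoxia genes, GAPDH was lower (median of the list -0.07), while PGAM1, ALDOA and PKM stood at -0.44, -0.22 and -0.29 (adjusted p = 0.177, 0.466 and 0.276, edgeR). This list had 5 genes lower and none higher at an unadjusted p under 0.05, against 5.39% and 3.75% of all genes tested. Of 77 cytosolic ribosomal protein genes RPS3 was lower (median -0.03), and at an unadjusted p under 0.05, 9 were lower and 1 higher, against 5.39% and 3.75% of all genes tested. None of 24 cholesterol synthesis genes (median 0.02), 11 replication-dependent histone genes (-0.07) or 36 nuclear complex I subunit genes (-0.01) was called. These lists had 1, 1 and 2 genes lower and 0, 1 and 0 higher at an unadjusted p under 0.05, beside the same shares. FDPS, a prenyl synthase of the cholesterol pathway, was at -0.40 ± 0.11 (SE, adjusted p = 0.0886). The complex I assembly factor NDUFAF3, which was called, is not a subunit and was not on the last list.

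**Figure D5:**
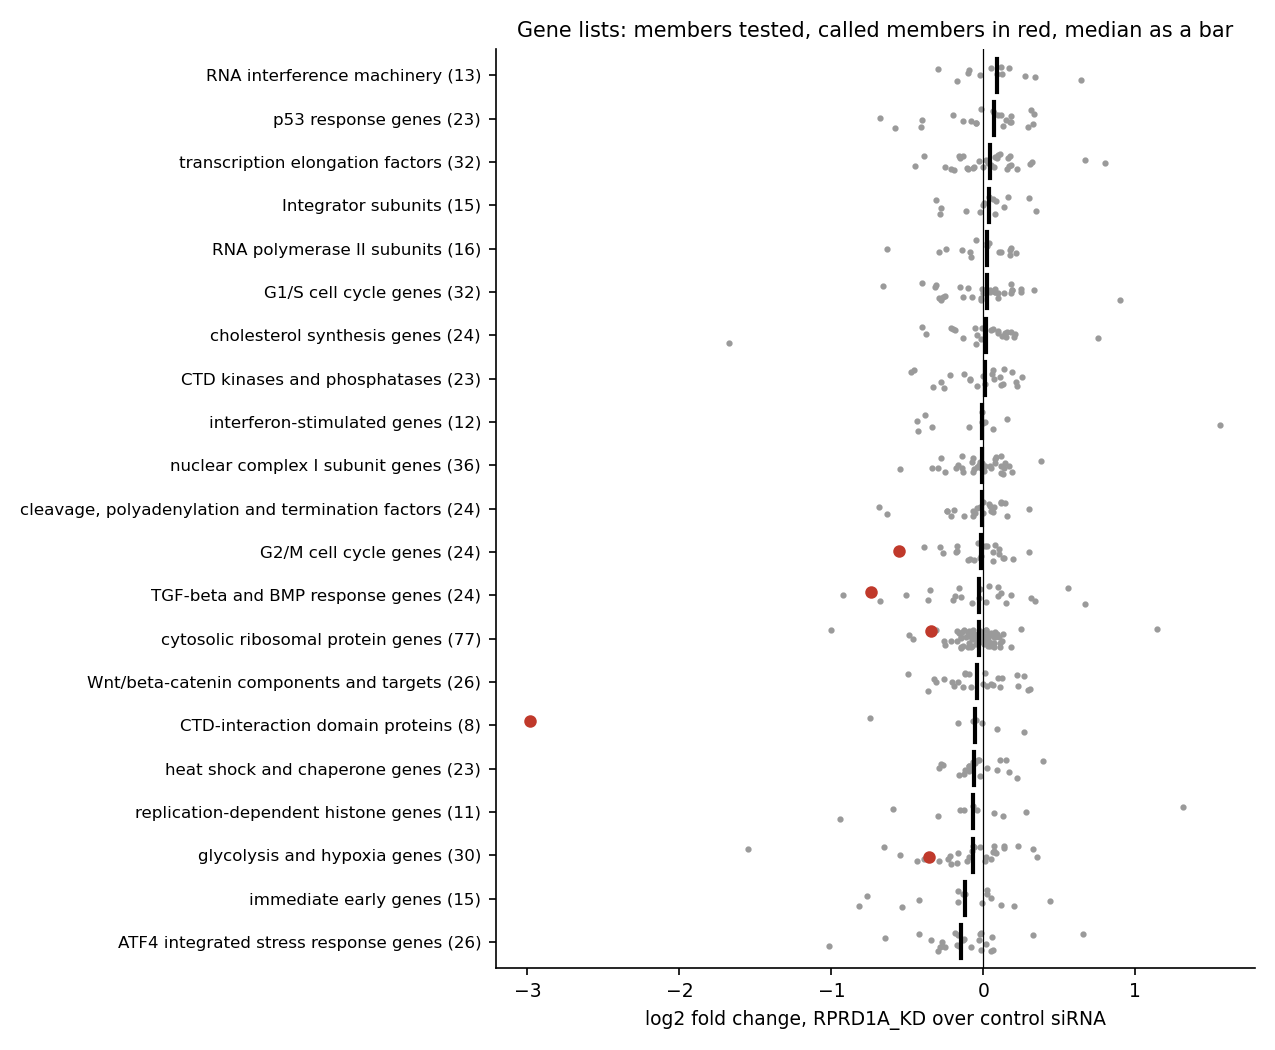
Log2 fold change of RPRD1A_KD over control siRNA for the tested members of each gene list (points), with called members in red and the list's median as a bar; the number tested is in brackets and lists are ordered by median. RPRD1A at -2.98, SMAD5, TPX2, GAPDH and RPS3 are the 5 called members, and the list medians run from -0.15 for ATF4 stress response genes to 0.09 for RNA interference genes.

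Markers of the cell line and of other cell types were read in the same libraries. Summed over 12 markers of the HEK293 lineage, the level was 649 and 785 CPM in the controls and 608 and 699.8 CPM in RPRD1A_KD, lower with RPRD1A siRNA within each replicate number but overlapping across them, with ADRA1A at 0 and none of 11 tested members called. Summed markers of fibroblasts (10.3 to 15.1 CPM; COL1A2, DCN and THY1 at 0), leukocytes (13.8 to 19.2 CPM; PTPRC and 4 others of 8 at 0) and cervical carcinoma epithelium (2.87 to 7.76 CPM) overlapped between the groups. Markers of endothelium and hepatocytes summed to under 0.5 CPM in each of the 4 libraries, with 5 of 6 at 0 in each list. The endothelial markers were above 0 only in the second control library (0.456 CPM), and the hepatocyte markers only in the RPRD1A_KD libraries (0.483 and 0.344 CPM), all under the level that 3 counts give. The part of these markers in the results was not tested.

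Among genes set apart from the other single knockdowns but not from control, the rule named BACE1, BIN3, PCYOX1L and FAM174A. BACE1, the beta-secretase, was at 23.5 and 20.1 CPM in the controls, at 41.1 and 30.3 CPM in RPRD1A_KD and at 13.4 to 19.5 CPM in RPRD1B_KD and RPRD2_KD. Its value was 1.11 ± 0.19 (SE, adjusted p = 0.000199) against the other knockdowns and 0.70 ± 0.23 (SE, adjusted p = 0.222) against control. BIN3 stood at 0.97 and 0.24 in the same comparisons, PCYOX1L at 0.96 and 0.44, and FAM174A at -1.10 and -0.59. Among the groups with RPRD2 siRNA, FAM174A was called lower as well (-0.94, adjusted p = 0.0426), as was CAMSAP2, which binds microtubule minus ends (-0.89, adjusted p = 0.00151), while HEXDC was called higher (1.06, adjusted p = 0.0417). Against control siRNA the last 3 were not called in RPRD1A_KD, at -0.59, -0.43 and 0.13.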

How the data were processed

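Each deposited table holds, for 1 sample, the authors' raw counts for 58138 gene names, followed by 5 closing rows. Per the labels' protocols, cells were transfected for 48 h, RNA was extracted with TRIzol and libraries were made with a QuantSeq 3' kit (REV). Per the submitters' processing notes the tools were FastQC, STAR, HTSeq and DESeq2 and the build GRCh38; versions, strand setting and filters are not given in the sources used here. The closing rows were left out of library sizes and tests; in the 4 libraries reads outside genes made up 27.4% to 35.5% of all, ambiguous reads 1.30% to 1.55% and reads without a unique position 10.3% to 11.9%. The 8 Flp-In T-REx samples were not used.

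Members, gene lists and tests were chosen with earlier results of these data known. Genes were kept by filterByExpr (minimum count 10, total 15), scaled by TMM and tested with edgeR 4.0.16 (limma 3.58.1, R 4.3.3): glmQLFit and glmQLFTest on 15 libraries, 1 coefficient per group plus the replicate number as a block, with Benjamini-Hochberg adjustment over all 12255 genes and a threshold of 0.05. Each SE was derived from the fold change and its F statistic. The common biological coefficient of variation was 6.4%. The block rests on the numbers in the titles and was checked across 8810 genes by correlating (Pearson) the differences between libraries 1 and 2: r was 0.474 for control and RPRD1A_KD, 0.29 to 0.524 for the 21 pairs of groups without RPRD1A_RPRD2_KD and -0.011 to 0.265 for the 7 with it. Counts of libraries of 1 group differed by more than sampling noise (chi-square per degree of freedom 5.56 and 4.71), so none was counted as a duplicate.

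Named genes are the RPRD genes; the most strongly changed called genes, at most 12 in each direction, that had no overlap between the groups and a mean of 10 CPM or more; up to 3 each way from the 2 further comparisons; from each list up to 4 called members and 3 further ones with the smallest p; and 2 tested neighbours of RPRD1A on each side. Coordinates come from GENCODE 29 (GRCh38), in which 54848 names match 1 gene, and promoters from RefSeq (GRCh38.p14). Alternatives were RLE scaling, DESeq2 1.42.0, other filters (none, or a mean count of 50 or more), all 16 libraries, no block, a GC correction, only the groups compared, a minimum log2 fold change of 1 and leaving out each library. The edgeR script was tested on simulated counts with 200 changed genes.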

Additional observations from a re-analysis of the deposited data

Results flagged for a closer look

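The change with RPRD1A siRNA differed between cells without and with RPRD2 siRNA for 10 genes by a test of the difference itself (edgeR interaction, adjusted p under 0.05, 0.0816% of 12255 genes), all more negative in RPRD1A_KD against control. The differences, RPRD1A_KD against control minus the mean step among the groups with RPRD2 siRNA, were -1.16 ± 0.26 (SE) for RPRD1A, -1.10 ± 0.25 (SE) for RNU5F-1, -0.91 ± 0.20 (SE) for CIZ1, -0.65 ± 0.14 (SE) for AP1S1 and -0.60 ± 0.13 (SE) for AP2S1. They were -0.53 ± 0.12 (SE) for IGFBP2, -0.52 ± 0.12 (SE) for SLC7A5, -0.52 ± 0.10 (SE) for RPS3, -0.49 ± 0.11 (SE) for GAPDH and -0.44 ± 0.09 (SE) for TUBB. Adjusted p-values ran from 0.0195 for RPS3 to 0.0485.

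For RPRD1A the levels with its siRNA were alike, 20.2 CPM in RPRD1A_KD and 19.2 and 26.5 CPM in the groups with RPRD2 siRNA, while the references were 162 CPM in the controls and 87.6 and 77.7 CPM in RPRD2_KD and RPRD1B_RPRD2_KD. GAPDH averaged 2530 CPM in the controls, 1918, 1969 and 1760 CPM in RPRD1B_KD, RPRD1A_KD and RPRD2_KD, and 2460, 2453 and 2232 CPM in RPRD1A_RPRD2_KD, RPRD1B_RPRD2_KD and RPRD1A_RPRD1B_RPRD2_KD. In the same order, RPS3 averaged 3369 CPM, then 2711, 2658 and 2556 CPM, then 3025, 3169 and 3031 CPM. TUBB averaged 5442 CPM, then 4346, 4256 and 4102 CPM, then 5216, 4917 and 4866 CPM. In the doubly named RPRD1A_RPRD1A_KD, GAPDH, RPS3 and TUBB averaged 2025, 2724 and 4497 CPM, nearer to the single knockdowns than to the controls. RPRD1B_RPRD2_KD and RPRD1A_RPRD1B_RPRD2_KD also carry RPRD1B siRNA, so the settings differ by more than RPRD2 siRNA. The RPRD2 transcript was also higher with RPRD1A siRNA in both steps with RPRD2 siRNA, and its part in the differences was not tested. RNU5F-1 stood at 0.12 over both steps with RPRD2 siRNA but at -0.94 in the step to RPRD1A_RPRD1B_RPRD2_KD alone, beside -0.98 against control. Its mean levels were 29.2 CPM in RPRD2_KD, 37.8 CPM in the single RPRD1A_RPRD2_KD library, 56.8 CPM in RPRD1B_RPRD2_KD and 30.8 CPM in RPRD1A_RPRD1B_RPRD2_KD, and which of these libraries sets the difference was not tested. RPS3, GAPDH and TUBB stood at -0.07, -0.13 and -0.01 in that step alone. None of the 10 differences was called with all 16 libraries, without the block or with DESeq2. CIZ1, a nuclear protein linked to replication, was not called in RPRD1A_KD against control (-0.45, adjusted p = 0.28) and was named after its values were seen.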

How the results depend on the processing

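The fall of RPRD1A was called under every alternative run. The count of 40 genes in RPRD1A_KD against control was 40 with RLE scaling, 41 with a GC correction, 54 without a filter, 33 at a mean count of 50 or more, 15 with DESeq2, 83 in a fit of only the 4 libraries compared, 3 with a minimum log2 fold change of 1 in size, and 8 to 25 with 1 library left out (25 and 16 without control 1 and 2, 9 and 8 without RPRD1A_KD 1 and 2). Without the replicate block it was 1, as with all 16 libraries with the block and with all 16 without it. The 71 genes against RPRD1B_KD and RPRD2_KD became 31 with DESeq2, 9 with all 16 libraries, 2 without the replicate block with 15 or 16 libraries, 9 with a minimum log2 fold change of 1 in size and 15 to 55 with 1 library left out. The 24 genes among the groups with RPRD2 siRNA became 13 with DESeq2, 8 with all 16 libraries, 1 without the block with 15 or 16 libraries, 46 with only those groups, 2 with a minimum log2 fold change of 1 in size, 4 in the step to RPRD1A_RPRD1B_RPRD2_KD alone and 9 to 15 with 1 library left out. The 10 genes whose change differed between the settings became 21 without a filter, 18 with only the groups compared, 2 with a minimum log2 fold change of 1 in size and 0 to 21 with 1 library left out. That count was 0 with DESeq2 (339 at an unadjusted p under 0.05), at a mean count of 50 or more (660), with all 16 libraries (808) and without the block with 15 or 16 libraries (360 and 384). In those last 2 comparisons RPRD1A_RPRD2_KD has 1 library in the fit, so it could not be left out. Some uncalled genes changed sign, among them INTS11 and BIN3, which stood at -0.31 and 0.24 in the main fit. With 1 of the 4 libraries left out, RPRD1B ranged from -0.491 to 0.177 (0.177 without control 2, 0.031 without RPRD1A_KD 1), RPRD2 from -0.165 to 0.04 (0.04 without control 2, 0 without RPRD1A_KD 2), BIN3 from -0.018 to 0.423, C18orf21 from -0.429 to 0.243, SLC39A6 from -0.027 to 0.034, ELP2 from -0.009 to 0.092, CHERP from -0.037 to 0.25 and INTS11 from -0.63 to 0.003. With the GC correction SLC39A6 stood at -0.014. Over 114 gene values and 1435 alternatives, 1149 kept direction and side of the threshold, 262 lost the call, 12 gained it and 12 changed sign. With 1 sample less, a group's lone library is assumed to vary like the others; the causes of these shifts were not tested. Depth limits the low genes: 3 counts were worth up to 1.64 CPM.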
